A study of Arabidopsis thaliana with 4 samples.

Results

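The genes described here encode the 6 subunits of the Arabidopsis PAF1 complex: *ELF7* (AT1G79730), *ELF8* (AT2G06210, also called *VIP6*), *CDC73* (AT3G22590, annotated as *PHP*), *VIP4* (AT5G61150), *VIP5* (AT1G61040) and *VIP3* (AT4G29830). They were chosen by name from the known composition of the complex, and all 6 of them were found among the 37336 genes of the deposited table. All 6 were among the 23723 genes whose mean over the libraries was at least 1 and which were tested. Transcript levels were measured by polyA RNA-seq in whole 6-day-old seedlings, with 2 libraries of wild-type Col-*0* plants and 2 libraries of *s2lb-2* plants grown without any treatment. S2Lb is a homolog of yeast Swd2, a subunit of the COMPASS complex that methylates lysine 4 of histone H3 (H3K4). The *s2lb-2* line came from an insertion made in the Nossen accession that was crossed repeatedly into Col-*0*, so it is 1 insertion line. The comparison asked whether transcript levels of the complex differed in seedlings that lack S2Lb.

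The PAF1 complex travels with elongating RNA polymerase II (RNPII) and is needed in yeast for the monoubiquitination of histone H2B and, through it, for H3K4 trimethylation. In Arabidopsis it is best known for the flowering repressor *FLC*: mutants in its subunits flower early because *FLC* and related genes are poorly expressed. This is why several subunits carry the names VERNALIZATION INDEPENDENCE (VIP) or EARLY FLOWERING (ELF). ELF7 corresponds to yeast Paf1, ELF8 to Ctr9, CDC73 to Cdc73, VIP4 to Leo1 and VIP5 to Rtf1. VIP3 is a WD40-repeat protein that also serves as the SKI8 subunit of the SKI complex, a cofactor of RNA decay by the cytoplasmic exosome.

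The 6 genes lie on all 5 nuclear chromosomes (positions from the RefSeq annotation of TAIR10.1). *ELF7* is on chromosome 1 from 30000538 to 30004083 on the minus strand with 12 exons, and *VIP5* is on the same chromosome from 22483104 to 22485969 on the plus strand with 2 exons. *ELF8* is the longest gene of the complex, on chromosome 2 from 2428903 to 2436687 on the minus strand, with 24 exons. *CDC73* is on chromosome 3 from 8003898 to 8005902 on the plus strand with 3 exons, and *VIP3* on chromosome 4 from 14597559 to 14599300 on the plus strand with 2 exons. *VIP4* is on chromosome 5 from 24603634 to 24607725 on the minus strand with 11 exons. It is the only member on the chromosome of *S2Lb*, at a distance of 1.86 Mb from that gene.

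The sequences before the starts of 4 genes are shown because they share a short motif that the choice of the genes did not use. This motif is site II, TGGGCC on either strand (GGCCCA on the other), which occurs in promoters of many plant genes expressed in dividing cells. Within the window from 250 bases before to 50 bases after the annotated start, 4 of the 6 genes held it, against 15.5% of all 27443 promoters of protein-coding genes and 17.6% of the 22078 promoters of tested genes. The variant TGGGCT, also searched on either strand, was present in 2 of the 6, *CDC73* and *VIP4*, against 14.2% of all promoters. In these genes no match overlapped another. Each line below runs 5′ to 3′ along the gene's own strand, from 140 bases before to 10 bases after the start, with matches to either motif in capitals (sequence from RefSeq, TAIR10.1).

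*ELF7* (chr1:30004074-30004223, minus strand): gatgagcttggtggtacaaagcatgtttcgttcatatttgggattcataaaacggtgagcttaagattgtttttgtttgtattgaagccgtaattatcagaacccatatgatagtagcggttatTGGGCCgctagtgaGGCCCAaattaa

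*CDC73* (chr3:8003758-8003907, plus strand): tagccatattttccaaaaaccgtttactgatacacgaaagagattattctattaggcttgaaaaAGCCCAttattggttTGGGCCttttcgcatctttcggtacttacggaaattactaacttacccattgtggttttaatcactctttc

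*VIP4* (chr5:24607716-24607865, minus strand): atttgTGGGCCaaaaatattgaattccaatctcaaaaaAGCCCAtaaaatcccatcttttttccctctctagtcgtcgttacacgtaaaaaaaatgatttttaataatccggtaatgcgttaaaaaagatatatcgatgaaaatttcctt

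*VIP3* (chr4:14597419-14597568, plus strand): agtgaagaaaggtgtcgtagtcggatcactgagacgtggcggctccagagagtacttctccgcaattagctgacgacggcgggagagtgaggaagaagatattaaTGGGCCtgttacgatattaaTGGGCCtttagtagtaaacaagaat

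*ELF7* and *VIP3* each held 2 copies of TGGGCC within the last 35 bases before the start or across it. In *CDC73* and *VIP4*, 1 copy of TGGGCC stood beside 1 copy of the variant, and in *VIP4* both lay farthest from the start, at -135 and -102. The promoters of *ELF8* and *VIP5* held neither. None of the 6 held the telo box (AAACCCTA or TAGGGTTT, in 6.22% of all promoters), the G box (CACGTG, 7.68%) or the evening element (AAATATCT or AGATATTT, 5.65%). These are matches of letters only, and with 6 genes they are a description.

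**Figure D1:**
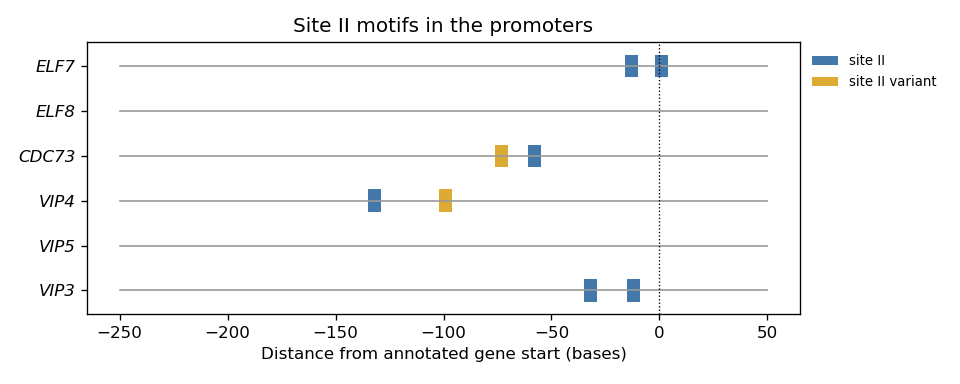
Position of site II matches (blue) and of the variant (yellow) in the promoters of the 6 genes, in bases from the annotated gene start (dotted line); grey lines span the window searched, 250 bases before to 50 after. Matches lie in 4 of the 6 promoters, all within 135 bases before the start or across it.

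The libraries held from 34325097 to 39114300 reads on genes, and from 24227 to 24570 genes had a read in each. *S2Lb* was lower in both *s2lb-2* libraries (80.8 and 67.2 normalized counts) than in the wild type (1337 and 1613). The log2 fold change was -4.30 (adjusted p = 0.0062, limma), and the libraries low in *S2Lb* were those whose titles name *s2lb*. The genotype label of these mutant samples, which gives a line with tagged SDG2, was not followed. Of the 23723 tested genes, 29 passed an adjusted p of 0.01 (0.122%), 15 of them higher and 14 lower in *s2lb-2*. The summed level of 4 markers of green tissue was 1621390 and 1598500 normalized counts in the wild type and 1487420 and 1346940 in *s2lb-2*, lower in both mutant libraries. Of these markers *RBCS1A* and *LHCB1.3*, which make up most of the sum, were lower in both mutant libraries. *GUN5* was higher in both, and *CAO* overlapped between genotypes. The part of these differences in the results was not tested. All 6 root markers were read (summed level from 2219 to 2765). *SCR* and *EXPA7* were higher and *SHR*, *PLT1* and *WER* lower in both mutant libraries, and *COBL9* overlapped. Such separation was common among all tested genes (24.8% higher and 24.7% lower in *s2lb-2*). Summed levels were 61.9 to 87.7 for 3 shoot meristem markers, 16.7 to 35.2 for 4 flower markers, of which *AP1* was at 0 in every library, and 25.9 to 327 for 4 seed markers, of which *LEC1* was at 0 in every library. The highest seed value was in wild-type replicate 1. No tested gene of these lists passed the threshold, and *LEC1*, *FUS3* and *AP1*, with means below 1, were not tested.

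All 6 genes of the complex were expressed in every library, with 423 to 2292 reads per gene and library. Values that compare genes were expressed as TPM, in which reads are divided by the exon length of the gene and scaled to the same total in every library. *VIP4* had the highest level in the wild type (34.6 ± 0.0546 TPM, SD, n = 2), followed by *ELF7* (28.6 ± 0.717), *ELF8* (20.0 ± 1.07), *VIP3* (19.3 ± 0.401), *VIP5* (12.9 ± 0.386) and *CDC73* (11.7 ± 1.54). In the wild type these levels lay above those of 61.3% (*CDC73*) to 83.7% (*VIP4*) of the genes with a read. *VIP4*, *ELF7* and the pair of *ELF8* and *VIP3* were separated from each other and from *VIP5* in all 4 libraries, without overlap of their TPM ranges. *ELF8* and *VIP3* were not separated, since *ELF8* was the higher of the pair in 1 of 4 libraries. *VIP5* was above *CDC73* within each of the 4 libraries, but their ranges over the libraries overlapped. The highest member exceeded the lowest by 2.72 to 3.78 times within a library.

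**Figure D2:**
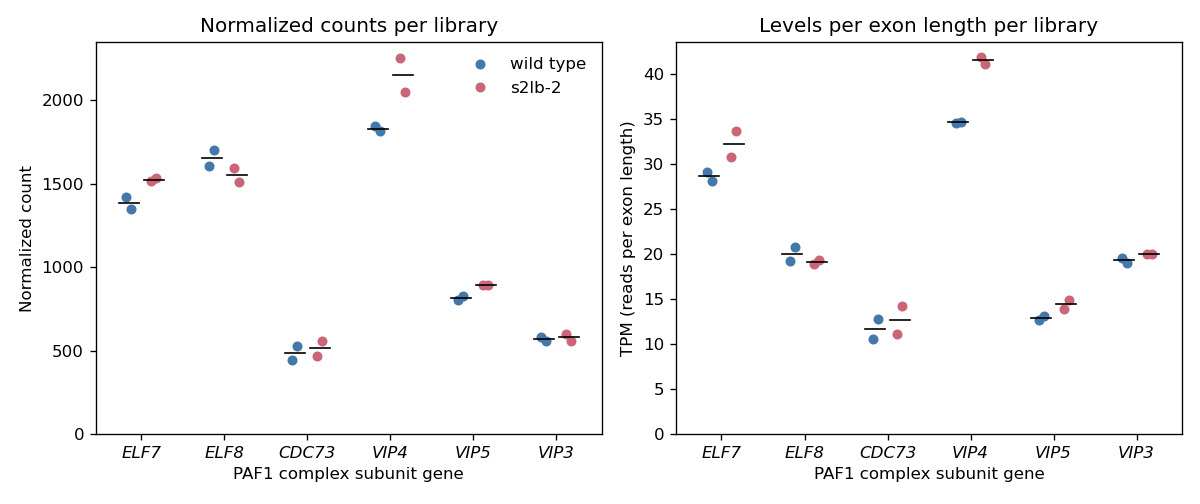
Values of the 6 PAF1 complex genes in each library (points: blue, wild type; red, *s2lb-2*; black bars: mean of 2 libraries), as normalized counts on the left and as TPM on the right. *VIP4* is the highest gene on both scales, and its *s2lb-2* libraries (2049 and 2258 normalized counts) lie above its wild-type libraries (1817 and 1846).

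None of the 6 genes passed the threshold between genotypes (0 of 6, against 0.122% of all tested genes). At an unadjusted p of 0.05 in limma, 1 of the 6 passed (*VIP4*), against 17.4% of all tested genes. In 3 genes (*ELF7*, *VIP4* and *VIP5*) both *s2lb-2* libraries were above both wild-type libraries, against 24.8% of all tested genes. In 1 gene (*ELF8*) both were below, against 24.7%. The median log2 fold change of the 6 genes was 0.11 and their median absolute change 0.11, where all tested genes had medians of -0.00 and 0.20. RNA came from whole seedlings, so a lower level could not be told apart from fewer cells that express the gene. The p-values measure the spread between libraries grown from different seed batches, 2 per genotype.

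*VIP4*, the LEO1 homolog, showed the largest difference of the complex. The wild-type libraries had 1846 and 1817 normalized counts and the *s2lb-2* libraries 2258 and 2049. Both mutant libraries were therefore above both wild-type libraries, and they differed more from each other (SD 148) than the wild-type libraries did (SD 20.7). The means were 1832 ± 20.7 and 2153 ± 148 (SD, n = 2), a 1.17-fold higher level in *s2lb-2*. The log2 fold change was 0.23 with a standard error of 0.0881 and a 95% interval from 0.01 to 0.45. Its unadjusted p in limma was under 0.05, and its adjusted p over all tested genes was 0.266, so the difference did not hold against the number of genes tested. A larger absolute change was found in 46.1% of the tested genes. With all 4 libraries, the unadjusted p of *VIP4* missed 0.05 in the quasi-likelihood test of edgeR and in DESeq2 on the recovered reads. It stayed under 0.05 in limma-voom and in the limma fits with other scaling factors, pseudocounts, filters or a replicate term. The adjusted p passed the threshold in none of these. The line was crossed from Nossen, and an effect of Nossen sequence that may remain near *S2Lb* and an effect of the mutation cannot be told apart for genes on this chromosome.

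*ELF7*, the PAF1 homolog that gives the complex its name, had 1421 and 1347 normalized counts in the wild type and 1516 and 1533 in *s2lb-2*. The mutant libraries were both above the wild-type libraries. The log2 fold change was 0.14 (SE 0.0845, 95% interval from -0.07 to 0.35, adjusted p = 0.462, limma). The gene shares 27 bp with its same-strand neighbour AT1G79740, which had 710 and 875 normalized counts in the wild type and 872 and 874 in *s2lb-2*. Reads in those bases could not be assigned to either gene.

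*VIP5*, the RTF1 homolog, gave the closest mutant replicates of the complex. It had 806 and 826 normalized counts in the wild type, and both *s2lb-2* libraries had 893. The genotypes did not overlap, and the log2 fold change was 0.13 (SE 0.0915, 95% interval from -0.10 to 0.36). This difference did not pass the test (adjusted p = 0.524, limma), whose estimate of the spread borrows from the other genes of like level.

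*ELF8*, the CTR9 homolog, a TPR-repeat protein, was the only member with a lower mean in *s2lb-2*. It had 1608 and 1703 normalized counts in the wild type and 1595 and 1513 in *s2lb-2*. The gap between the nearest libraries of the genotypes was small beside the spread within each (SD 67.0 and 57.7). The log2 fold change was -0.09 (SE 0.0866, 95% interval from -0.31 to 0.12, adjusted p = 0.641, limma).

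*CDC73*, whose human homolog is the tumour suppressor parafibromin, had 444 and 526 normalized counts in the wild type and 470 and 560 in *s2lb-2*. The genotypes overlapped, and in both of them replicate 2 was the higher library. Its coefficients of variation, 11.9% and 12.3%, were the largest of the complex in either genotype, against 4.86% from the counting of its lowest library alone. The log2 fold change was 0.09 (SE 0.149, 95% interval from -0.29 to 0.46, adjusted p = 0.817, limma). Leaving out wild-type replicate 1 or *s2lb-2* replicate 2 turned it to -0.04, so its direction was not determined.

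*VIP3* showed the smallest difference. It had 584 and 556 normalized counts in the wild type and 602 and 556 in *s2lb-2*, and the lower library of each genotype had the same value to the nearest count. The log2 fold change was 0.02 (SE 0.109, 95% interval from -0.25 to 0.29, adjusted p = 0.942, limma). Its direction also turned, to -0.01 without wild-type replicate 2 and to -0.03 without *s2lb-2* replicate 1. On the opposite strand *VIP3* overlaps 616 bp of the long noncoding RNA AT4G08225, which had 3.94 to 9.45 normalized counts, and 85 bp of *MTO2* (threonine synthase), which had 3024 to 3799. The libraries were made with a strand-specific kit, but the strand column that the authors counted is not given in the sources used here. Of the exon length of 1278 bp of *VIP3*, 459 bp overlap exons of AT4G08225 and 85 bp overlap exons of *MTO2*. Whether reads in these parts were counted for *VIP3* or lost depends on that column, and the effect on the level of *VIP3* was not tested.

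**Figure D3:**
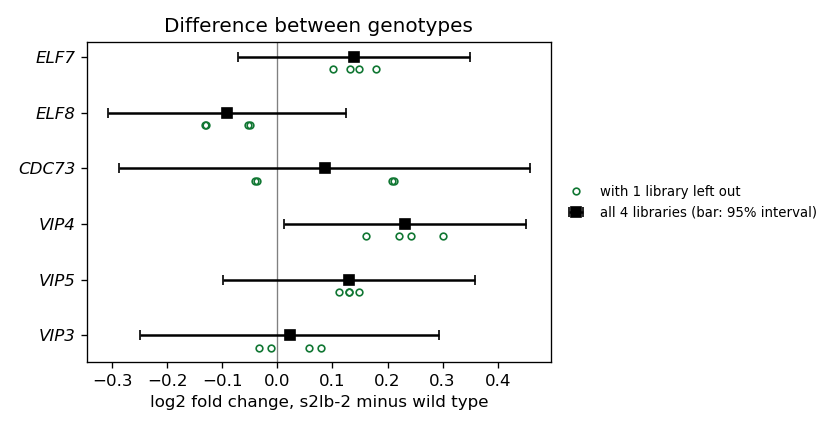
Log2 fold change between *s2lb-2* and wild type for each gene of the complex (squares, with 95% intervals from limma on 4 libraries) and the values with 1 library left out (open circles). All intervals but that of *VIP4* (0.01 to 0.45) include 0, and the circles of *CDC73* and *VIP3* lie on both sides of 0.

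The 95% intervals from limma give a range of change for each gene under its estimate of the spread, and they are not adjusted for the number of genes. For the 6 genes, they ran from a log2 fold change of -0.31 (*ELF8*) to 0.46 (*CDC73*). A change of 1 on the log2 scale, that is a doubling or a halving, was outside the interval of each of the 6 genes. The absolute changes were exceeded by 46.1% (*VIP4*), 62.5% (*ELF7*), 64.6% (*VIP5*), 74.2% (*ELF8*), 75.5% (*CDC73*) and 93.2% (*VIP3*) of the tested genes.

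**Figure D4:**
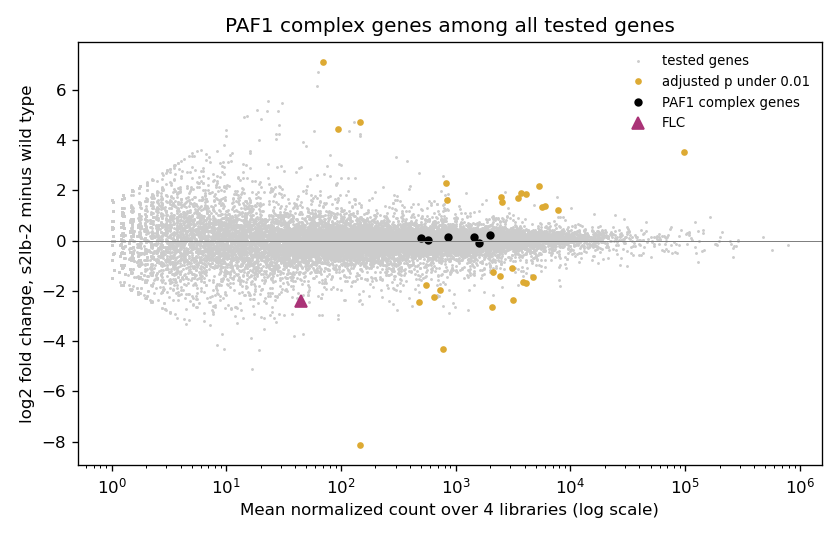
Log2 fold change against the mean normalized count (log scale) for all 23723 tested genes (grey), with the 29 genes past the threshold in yellow, the 6 PAF1 complex genes in black and *FLC* as a triangle. The black points lie between -0.09 and 0.23 on the vertical axis.

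The scale between libraries moved these differences slightly. In TPM, which was looked at after the values were seen and carries no test, the log2 differences were 0.17 for *ELF7*, -0.06 for *ELF8*, 0.11 for *CDC73*, 0.26 for *VIP4*, 0.16 for *VIP5* and 0.05 for *VIP3*. The median over 16218 genes with a mean of at least 100 was 0.03 on this scale. On it the libraries of the genotypes overlapped for *ELF8*, and both *s2lb-2* libraries were above both wild-type libraries for 4 genes, now with *VIP3*, against 27.0% of the tested genes. No gene of the complex was lower without overlap in TPM (20.5% of the tested genes).

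The balance among the subunits was described by the share of each gene in the summed TPM of the 6. In normalized counts, not divided by length, the 6 genes summed to 6709 and 6775 in the wild type and 7333 and 7103 in *s2lb-2*. The summed TPM was 126 and 128 in the wild type and 137 and 143 in *s2lb-2*, a ratio of means of 1.10. *VIP4* took 27.5% and 27.0% of it in the wild type and 30.7% and 28.7% in *s2lb-2*. *ELF8* took 15.3% and 16.2% in the wild type and 13.9% and 13.5% in *s2lb-2*. The libraries of the genotypes did not overlap for these shares, with *VIP4* higher and *ELF8* lower in the mutant. *VIP3* was lower in share without overlap too (15.6% and 14.8% against 14.6% and 13.9%). *ELF7* (means of 22.5% and 23.0%), *CDC73* (9.17% and 9.04%) and *VIP5* (10.1% and 10.3%) overlapped between genotypes. Separation of this kind is common with 2 libraries per genotype: in TPM, 27.0% of the tested genes were higher and 20.5% lower in *s2lb-2* without overlap. Shares of a sum are not independent of each other, and no test was made of them.

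Centred on its own mean over the libraries, *VIP5* was nearest to the mean pattern of the 6 genes (distance 0.0443 on the log2 scale), and *CDC73* was farthest (0.238). Among 16257 genes with a mean of at least 100, the 3 nearest to this mean pattern were AT1G55090 (distance 0.00358), AT5G17160 (0.0145) and AT2G04230 (0.0145). AT1G55090 had 1565 and 1601 normalized counts in the wild type and 1683 and 1670 in *s2lb-2*, with both mutant libraries above both wild-type libraries. With 4 libraries, such likeness is a description of few values.

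Genes that act with the complex were looked at next, by lists of named factors. H2B ubiquitination, which the PAF1 complex promotes in yeast, depends in Arabidopsis on the E3 ligases HUB1 and HUB2. The list holds their genes and those of the related E2 enzymes UBC1 to UBC3, whose separate parts in the mark were not tested here. The list also holds 5 genes for removal of the mark: *UBP26*, *OTLD1*, *UBP22*, and the genes of a SAGA-associated factor (AT5G58575) and an mRNA export factor (AT3G27100) that act with UBP22. None of these 10 genes passed the threshold. Their median log2 fold change, over genes listed for placing and genes listed for removing the mark, was -0.00. *UBC2* had 2267 and 2545 normalized counts in the wild type and 1862 and 2025 in *s2lb-2*. Its mutant libraries were both lower, with a log2 fold change of -0.31 (SE 0.0982, adjusted p = 0.208, limma). *UBC1*, its close paralog, had 3636 and 3990 against 3181 and 3390, also without overlap, and a log2 fold change of -0.21 (adjusted p = 0.296, limma). Reads that match both paralogs may have been lost. *HUB1* (985 ± 53.7 against 1014 ± 44.9) and *HUB2* (814 ± 65.0 against 849 ± 39.3) overlapped between genotypes.

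RNPII elongation factors, such as the SPT4/SPT5 pair, SPT6L, the FACT subunits SPT16 and SSRP1, and the kinases CDKC;1 and CDKC;2, gave 0 calls among 14 genes and a median of 0.04. *SSRP1* had 1790 and 1993 normalized counts in the wild type and 1576 and 1706 in *s2lb-2*, without overlap, and a log2 fold change of -0.20 (adjusted p = 0.362, limma). Its FACT partner *SPT16* had a log2 fold change of 0.09 (adjusted p = 0.633, limma). The largest value of the list was that of *SPT5-1* (0.33, adjusted p = 0.836, limma), a gene with only 3.72 to 12.6 normalized counts, whereas *SPT5-2* had 2636 to 2888. The largest subunit of the polymerase, *NRPB1*, had a log2 fold change of 0.05 and the second largest, *NRPB2*, of 0.10, and neither passed the test (0 of 2).

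VIP3's other partners, the SKI complex subunits AT3G46960 (an RNA helicase of the SKI2 type) and AT1G76630 (a TPR-repeat protein), had log2 fold changes of -0.00 and -0.12 and did not pass (0 of 2). The helicase had 1258 and 1261 normalized counts in the wild type and 1229 and 1291 in *s2lb-2*. Like *VIP3*, both of them overlapped between genotypes.

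Genes of the H3K4 methylation machinery itself gave 0 calls among 5 COMPASS-like subunits (median -0.05) and 0 among 7 methyltransferases (median 0.05). *WDR5A* (-0.14, adjusted p = 0.696, limma) and *WDR5B* (-0.10, adjusted p = 0.835) had the largest values of the subunits. *S2La*, the paralog of *S2Lb*, had 224 and 272 normalized counts in the wild type and 228 and 250 in *s2lb-2*. Among the methyltransferases, *SDG2*, the main enzyme of H3K4 trimethylation in Arabidopsis, had 2010 and 2008 normalized counts in the wild type and 2253 and 2298 in *s2lb-2*. Its mutant libraries were both higher, with a log2 fold change of 0.18 (SE 0.0769, adjusted p = 0.318, limma). This is the gene named in the genotype label that was not followed, and reads of a tagged *SDG2* transgene could not be told apart from those of the gene itself. *ATX5* had a log2 fold change of -0.17 (adjusted p = 0.599, limma).

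**Figure D5:**
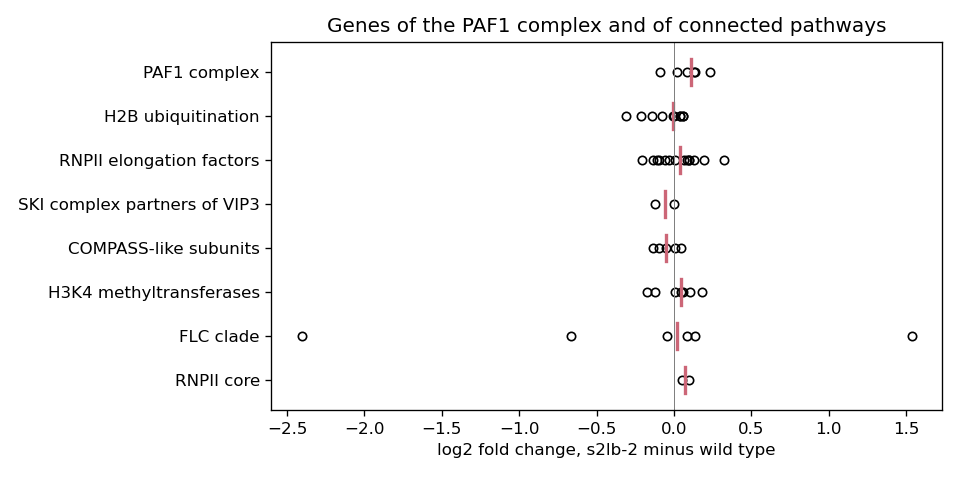
Log2 fold change between *s2lb-2* and wild type for the genes of the PAF1 complex and of 7 lists of connected genes (circles: genes; red bars: median of the list). The medians lie between -0.06 and 0.11, and the spread is widest in the *FLC* clade, from -2.40 to 1.54.

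The *FLC* clade holds MADS-box repressors of flowering whose expression is known to need the PAF1 complex, and it gave the widest range of all lists. *FLC* had 79.8 and 69.7 normalized counts in the wild type and 8.86 and 19.7 in *s2lb-2*. Both mutant libraries were far below both wild-type libraries, and the means were 74.7 ± 7.14 and 14.3 ± 7.63 (SD, n = 2). The log2 fold change was -2.40 (SE 0.429, 95% interval from -3.47 to -1.33, unadjusted p = 0.0018 in limma). After adjustment over all tested genes it did not pass the threshold (adjusted p = 0.0768, limma), and it did not pass with edgeR (0.0609) or limma-voom (0.0713) on the recovered reads. It passed with DESeq2 on these reads (adjusted p = 0.0018) when the replicate number was not a term of the fit. *FLM* (0.14), *MAF2* (0.09) and *MAF3* (-0.05) had small log2 fold changes with adjusted p of 0.497, 0.680 and 0.877 (limma).

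*MAF5* had 5.25 and 9.29 normalized counts in the wild type and 36.4 and 13.4 in *s2lb-2*, a log2 fold change of 1.54 (SE 0.596, adjusted p = 0.273, limma). Its neighbour *MAF4* had 60.9 and 62.2 against 49.2 and 30.0, a log2 fold change of -0.66 (adjusted p = 0.365, limma). Neither passed the test, and the mutant replicates of both differed widely. *MAF2* to *MAF5* are similar tandem genes, and reads that match more than 1 of them may have been lost. They lie 0.464 to 0.480 Mb from *S2Lb*, whereas *FLC* lies 23.3 Mb from it on the same chromosome. The part of Nossen sequence near *S2Lb* in the values of these genes was not tested. The median of the 6 genes of the clade was 0.02, with 3 above and 3 below 0. The low *FLC* level, which did not pass the main test, stood beside PAF1 complex transcripts whose differences were between -0.09 and 0.23 on the log2 scale. A link between them was not tested, and only RNA was measured.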

How the data were processed

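RNA-seq of 4 libraries was analysed, grouped by sample title. The authors removed adapters with trimmomatic, mapped 50-bp single reads on TAIR10 with STAR 2.5.4b, counted reads per Araport11 gene, and divided the counts by 1 DESeq2 size factor per library. The deposited signal is this normalized count. The authors' own DESeq2 comparison (log2 fold changes and p-values), also deposited, was not used. No column belonged to another sample (0 such columns).

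Reads were recovered from the deposited signal, of which 100% was whole within a tolerance of 1e-06 after multiplication by the size factor (0.953, 1.08, 1.02 and 0.967). On these reads, edgeR's quasi-likelihood test called 42 genes as an alternative. The main test was limma 3.58.1 (R 4.3.3; lmFit, eBayes with trend; prior degrees of freedom 3.55) on log2(normalized count + 1) with genotype as the only term. Fold changes are on this scale, which understates those of low genes. The test covered genes with a mean of 1 or more, and the threshold was a Benjamini-Hochberg adjusted p of 0.01 over all tested genes. Alternatives used TMM factors, edgeR 4.0.16, DESeq2 1.42.0, limma-voom, pseudocounts of 0.1 and 0.5, other filters, a threshold of 0.05, a replicate block and fits without each library. The fits were tested on simulated data with planted changes larger than those of the members, so that test does not cover differences of the members' size.

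The members, lists and tests were chosen with earlier results of these data known. Named genes were all members, *S2Lb*, the 2 largest absolute changes and every call in each list, the 3 genes nearest to the members' mean pattern, genes that overlap a member, and others of these lists chosen after their values were seen (*HUB1*, *HUB2*, *SPT16*, *SPT5-2*, *S2La*, *FLM* and *MAF2* to *MAF4*). Positions, exon lengths for TPM and sequences came from RefSeq TAIR10.1, which matched 37051 identifiers (99.2%). Libraries held 34325097 to 39114300 reads on genes, and both the reads of a gene and the 2 libraries per genotype limit the precision. The counting coefficients of variation cover counting error only. The labels and the paper name different RNA extraction kits.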

Additional observations from a re-analysis of the deposited data

How the results depend on the processing

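None of the 6 PAF1 complex genes passed the threshold under any alternative. Their lowest adjusted p ranged from 0.137 (limma with the replicate block) to 0.695 (DESeq2 with the block). The number of calls over all genes depended on the test: against 29 with limma, there was 1 with a pseudocount of 0.1, 704 with DESeq2, 379 at an adjusted p of 0.05, and 0 to 0 with 1 library left out (2533 to 3468 at an unadjusted p under 0.05). The other settings without a replicate block gave 27 to 42. In the *FLC* clade DESeq2 without a block called 1 gene, *FLC*, and every other setting called 0. In fits with 1 library left out, the remaining library of that genotype is assumed to vary like the other genotype's.

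Leaving out 1 library gave log2 fold changes of -0.040 to 0.21 for *CDC73* and of -0.034 to 0.079 for *VIP3*, both of which changed sign. The other 4 genes kept theirs: *ELF7* 0.10 to 0.18, *ELF8* -0.13 to -0.05, *VIP4* 0.16 to 0.30 and *VIP5* 0.11 to 0.15. Replicate numbers were shared between genotypes, but no label says that a number marks a shared batch. Across 23723 genes, which are not independent replicates, deviations of same-numbered libraries correlated with r = 0.178, and with r = 0.434 across the 16263 genes whose mean reached 100, all 6 members among them. The replicate block raised the calls of limma to 663 and gave 671 with DESeq2. With the block, *FLC* had an adjusted p of 0.0158 in DESeq2 and 0.0126 in limma, and so missed the threshold in both.

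Shares of reads without division by length, in place of shares of TPM, were 20.5% and 21.1% for *ELF7* in wild type and *s2lb-2*, 24.6% and 21.5% for *ELF8*, 7.19% and 7.14% for *CDC73*, 12.1% and 12.4% for *VIP5*, and 8.46% and 8.02% for *VIP3*, as division by length itself sets these levels. For *VIP4* they were 27.2% and 29.8%, close to its mean shares of TPM (27.2% and 29.7%).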
